A study of Homo sapiens with 26 samples.

Results

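The regions described here are 1000 genomic intervals at which budesonide alone gave a strong signal of the glucocorticoid receptor (GR) and interleukin-1β (IL1B), given with budesonide, left that signal nearly where it was. They were picked from 10740 regions of 400 bp by the measured values of cells infected with a control adenovirus. In those cells the log2 GR signal had to be at least 2.5 higher with budesonide than without treatment, and to differ by less than 0.5 between IL1B plus budesonide and budesonide alone. The members were 9.31% of the table and 41.8% of the 2390 regions that passed the first condition. Another 999 of those strong regions were at least 0.5 lower with added IL1B (weakened strong regions), and 391 were at least 0.5 higher (boosted strong regions). GR was mapped by chromatin immunoprecipitation and sequencing (ChIP-seq) in A549, an established human lung carcinoma line with features of alveolar type II cells, kept without serum before treatment. The groups infected with Ad-IκBαΔN, an adenovirus that inhibits NF-κB, received IL1B plus budesonide (I+B), budesonide (Bud) or nothing (NS). The groups infected with Ad-GFP, which carries green fluorescent protein, received the same 3 treatments. Budesonide was used at 300 nM and IL1B at 1 ng/ml, for 1 h. The labels give 2 GR libraries a group from independent experiments, and the table used here holds 1 authors' value per region and group. No difference between groups therefore has a replicate check, and no test or error is given. All groups were infected, so uninfected cells are not part of these comparisons, and the share of infected cells was not stated. ChIP signals give no expression, so cell type markers were not checked.

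GR is a nuclear receptor that budesonide, an inhaled glucocorticoid, sends to the nucleus, where it binds DNA. It binds as a pair to the glucocorticoid response element (GRE), an inverted repeat with a spacer, or it is found at sites opened or occupied by factors such as AP-1 and C/EBP. IL1B activates NF-κB by removing its inhibitor IκBα, and IκBαΔN is a form of that inhibitor that resists removal. Airway epithelium is a target of inhaled glucocorticoids, which there induce genes such as FKBP5 and DUSP1.

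The following sequences are chosen examples: a few members held a complete element, while several of the strongest held only a distant match. A complete element was in 4 members (0.4%), against 0.41% of all regions, 1.10% of weakened and 0.26% of boosted strong regions. Each line shows 60 bases of the plus strand of hg38 with the best GRE match, or another named motif, in capitals. Mismatches are counted over the 12 fixed bases of the element. The first lines are the members with a complete element, apart from 1 that is not shown, and then members near glucocorticoid target genes or among the strongest of all. The last 3 lines are neighbours of members that answered differently to added IL1B. The AP-1 motif at KLF9 reads in the opposite direction on this strand.
BCOR, 347 kb downstream of its start site, 0 mismatches, chrX:39830487-39830546: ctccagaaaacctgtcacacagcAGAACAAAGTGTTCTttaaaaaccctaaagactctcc
SRD5A3 intron, 0 mismatches, chr4:55357384-55357443: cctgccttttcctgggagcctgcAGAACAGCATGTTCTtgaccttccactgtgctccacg
PDSS2 intron, 0 mismatches, chr6:107247369-107247428: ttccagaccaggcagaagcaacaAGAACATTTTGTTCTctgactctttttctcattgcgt
MAOA, 1 mismatch, chrX:43589952-43590011: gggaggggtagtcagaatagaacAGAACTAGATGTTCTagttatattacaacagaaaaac
RHOB, 2 mismatches, chr2:20438761-20438820: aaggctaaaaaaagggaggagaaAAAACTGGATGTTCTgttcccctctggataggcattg
ARRDC2, 2 mismatches, chr19:18020535-18020594: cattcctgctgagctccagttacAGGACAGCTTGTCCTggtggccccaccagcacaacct
VMP1 exon, 2 mismatches, chr17:59837540-59837599: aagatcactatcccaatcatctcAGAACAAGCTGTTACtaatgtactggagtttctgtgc
FKBP5, 2 mismatches, chr6:35731995-35732054: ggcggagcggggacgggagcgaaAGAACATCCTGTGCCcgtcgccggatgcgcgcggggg
KLF9, 2 mismatches, chr9:70420102-70420161: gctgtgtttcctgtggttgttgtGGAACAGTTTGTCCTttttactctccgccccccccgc
KLF9, AP-1 motif of the same region, chr9:70420062-70420121: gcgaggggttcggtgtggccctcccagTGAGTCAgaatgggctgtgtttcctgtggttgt
CD7, 2 mismatches, chr17:82297527-82297586: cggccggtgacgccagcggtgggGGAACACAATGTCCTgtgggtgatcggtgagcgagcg
PTPN1, 3 mismatches, chr20:50415767-50415826: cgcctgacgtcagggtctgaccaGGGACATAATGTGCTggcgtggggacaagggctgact
DUSP1, 4 mismatches, chr5:172772510-172772569: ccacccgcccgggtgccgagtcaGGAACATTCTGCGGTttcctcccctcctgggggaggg
PAPPA, 5 mismatches, chr9:115944757-115944816: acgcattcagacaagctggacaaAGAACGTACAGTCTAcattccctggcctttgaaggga
FKBP5 intron, not a member, 2 mismatches, chr6:35722512-35722571: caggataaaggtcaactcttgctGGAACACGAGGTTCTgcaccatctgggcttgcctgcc
CCL20 intron, not a member, κB motif, chr2:227813738-227813797: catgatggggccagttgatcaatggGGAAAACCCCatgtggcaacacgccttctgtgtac
BIRC3 promoter, not a member, κB motif, chr11:102317260-102317319: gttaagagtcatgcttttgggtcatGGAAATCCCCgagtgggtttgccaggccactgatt
The first 3 elements match the full inverted repeat, while the PTPN1, DUSP1 and PAPPA regions, all among the 12 members with the highest Ad-IκBαΔN budesonide signal, had no match closer than 3, 4 and 5 mismatches.

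The deposited values are log2 of a GR binding intensity. Raising 2 to the value and subtracting 1 gave the linear signal quoted here, which behaves as a mean coverage per base. Multiplied by 400, it fell on whole multiples of 3 in Ad-GFP I+B and of 1.5 in Ad-IκBαΔN I+B, and on whole multiples of 1 in the Bud group of each virus (tolerance 0.001). The Ad-IκBαΔN NS values had no such step, and in Ad-GFP NS 10739 of 10740 values were whole multiples of 1. The scale of the groups thus differed, and what set it was not stated in the labels. This touches the members directly. With each group divided by its step, their median Ad-GFP difference between I+B and Bud was -1.65, and 0 of the 1000 met the rule, while 147 other regions did. After re-centring each group on its median over all regions the members' median was -1.16, and 0 of them met the rule. After quantile normalization it was -0.76, and 27 met it. The word "nearly" in the description of the members therefore holds for the deposited scale only.

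**Figure D1:**
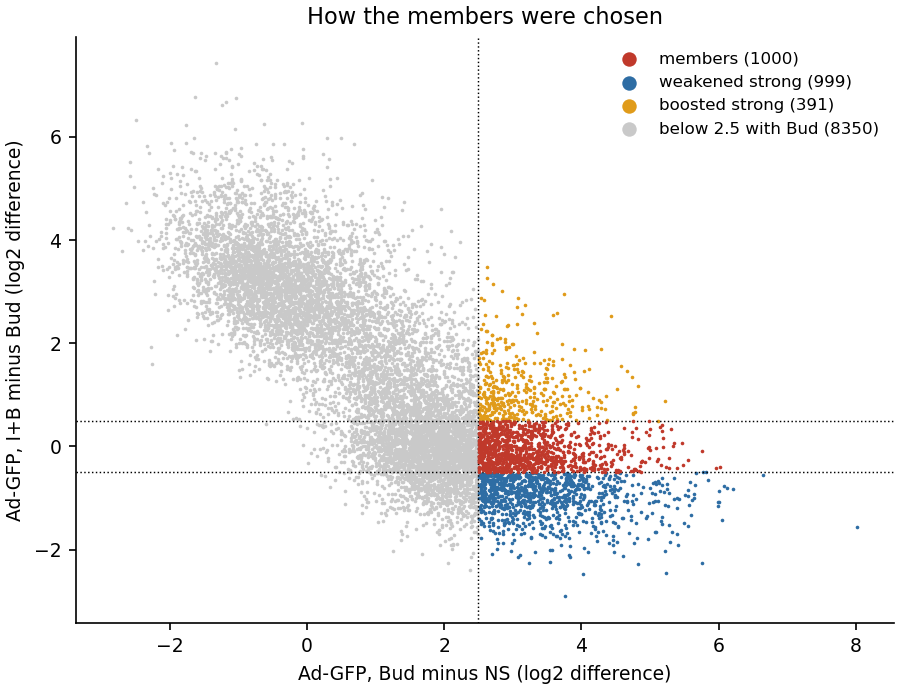
Each point is 1 of the 10740 regions, placed by its Ad-GFP log2 difference between Bud and NS (horizontal axis) and between I+B and Bud (vertical axis), with the thresholds of the rule as dotted lines. The 1000 members fill the band between -0.5 and 0.5 to the right of 2.5, with 999 weakened strong regions under it and 391 boosted ones over it.

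The thresholds cut through a continuous cloud of regions. They are named here by the nearest gene start at any distance. Members nearest to LY75, STPG2 and PRKG2 stood just inside the threshold of 2.5. Regions nearest to FXYD4, SBF2 and ABHD2 stood just outside it, all at 2.50 when rounded. In Ad-IκBαΔN, which the rule did not use, Bud exceeded NS by 1.75 to 2.55 in the inside regions, and by as much as 2.95 at FXYD4 and 3.09 at ABHD2 outside. At the upper limit of added IL1B, members nearest to MIPEP, KLF5 and TMOD3 (0.50, 0.49 and 0.49 in Ad-GFP) had Ad-IκBαΔN differences of 0.13, -0.39 and 0.15. The regions next outside, nearest to MSI2, RBFOX3 and RAB11B (0.50 each), had -0.18, -0.35 and 0.33. At the lower limit, members nearest to TXNDC16, PTPRJ and IPMK (-0.50 each) had -0.64, -0.07 and 0.35. The regions next outside there, nearest to NFKBIA, SLC45A1 and PAWR (-0.50, -0.50 and -0.51), had -0.32, -0.46 and -0.19. Neighbours across a threshold thus overlapped in Ad-IκBαΔN.

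The members had a high budesonide signal in Ad-IκBαΔN cells too. Their median signal in Ad-IκBαΔN was 48.2 with I+B, 51.3 with Bud and 7.87 in NS cells. In Ad-GFP it was 56.7 with I+B, 59.5 with Bud and 5.71 in NS cells. Over all 10740 regions the Ad-IκBαΔN medians were 23.6, 21.6 and 7.79, and the Ad-GFP medians 45.7, 21.7 and 7.58, in the same order. In Ad-IκBαΔN, which the rule did not use, the members stood above the table's medians with I+B and with Bud and near it in NS cells, while their Ad-GFP levels follow from how they were chosen.

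**Figure D2:**
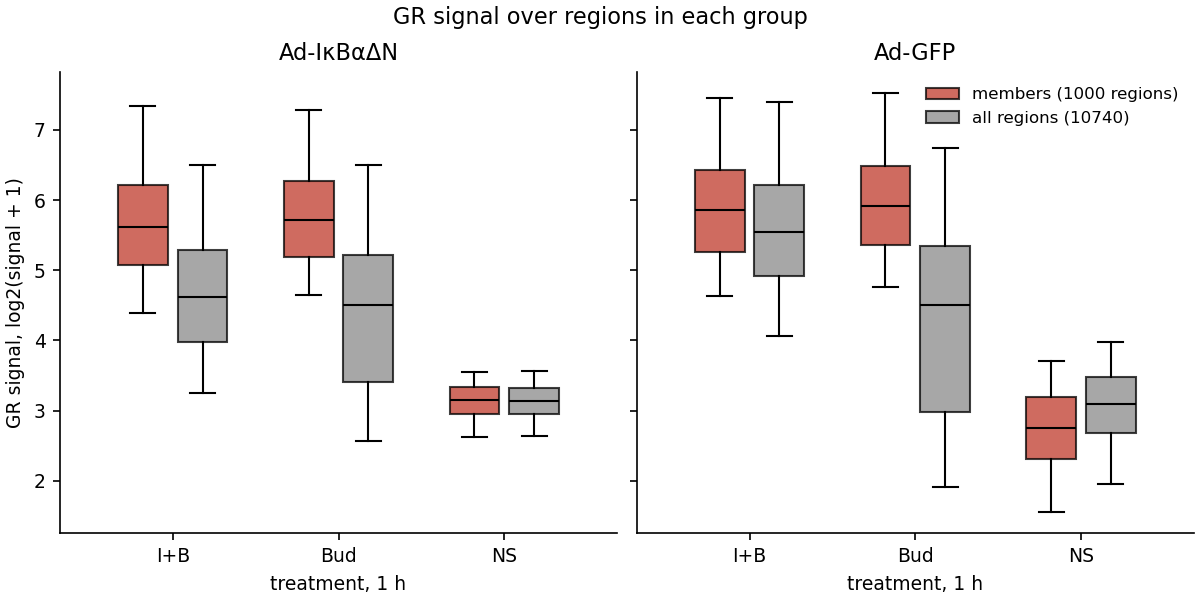
GR signal, log2(signal + 1), of the 1000 members (red) and of all 10740 regions (grey) in each treatment of Ad-IκBαΔN (left) and Ad-GFP (right) cells. Lines are medians, boxes quartiles and whiskers the 5th and 95th percentiles across regions, not an error; the members' medians with Bud were 5.71 in Ad-IκBαΔN and 5.92 in Ad-GFP.

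With budesonide, 996 of the 1000 members were at least 2-fold higher than in NS cells in Ad-IκBαΔN, and 0 were at least 2-fold lower, where 59.3% of all regions were higher and 1.06% lower. Their median log2 difference was 2.57 in Ad-IκBαΔN, with quartiles of 2.11 and 3.12, against 1.37 over all regions. The other strong regions were alike: 99.6% of weakened and 98.2% of boosted ones were at least 2-fold higher, with medians of 2.90 and 2.49. Re-centring and quantile normalization, which bring the median over all regions close to 0, left the members' median at 1.21 and 1.05, with 61.6% and 51.7% of them at least 2-fold higher. The shares of all regions under these scalings were not counted. In Ad-GFP all members were higher by the rule, against 57.9% of the table, with 8.14% of the table lower, and their median was 3.10. With I+B against NS, 984 members were at least 2-fold higher and 0 lower in Ad-IκBαΔN, against 69.1% and 0.0466% of the table. In Ad-GFP the rule itself puts I+B above NS by over 2 on the log2 scale in every member, so nothing is read from that count, beside 93.7% of the table. The threshold of 2.5 was met again in Ad-IκBαΔN by 540 members (54%). Outside the members this was not counted, but the upper quartile over all regions was 2.12. The medians of weakened and boosted strong regions, 2.90 and 2.49, lay above and just below that threshold. The smaller Ad-IκBαΔN differences went with higher NS and lower Bud signals than in Ad-GFP. The members' median log2 difference between Ad-IκBαΔN and Ad-GFP was 0.37 in NS cells and -0.20 with Bud. The members' NS signals had quartiles of 6.75 and 9.08 in Ad-IκBαΔN, against 3.98 and 8.17 in Ad-GFP, where the rule favours low values. The part of the NS and of the Bud groups in the smaller differences was not tested. Across the 1000 members the log2 signal of the viruses correlated with a Pearson's r of 0.99 with Bud, 0.80 with I+B and 0.27 in NS cells. In the same order, r was 0.99, 0.57 and 0.31 over all strong regions and 0.98, 0.17 and 0.29 over the whole table. These coefficients describe regions that share libraries and are no test.

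In Ad-IκBαΔN cells, the members had nearly the same median response to added IL1B as the other strong regions. The Ad-IκBαΔN median log2 difference between I+B and Bud was -0.13 for the members, -0.13 for the weakened and -0.12 for the boosted strong regions. In Ad-GFP these sets stood at -0.12, -0.94 and 0.98 by their definition; of all 10740 regions, 48.9% had I+B at least 2-fold above Bud and 6.07% at least 2-fold below it. Over all regions the medians were 0.26 in Ad-IκBαΔN and 0.92 in Ad-GFP. With steps divided out the 3 sets had -0.69, -0.70 and -0.69, and after re-centring -0.25 each; these scalings move all regions of a group nearly alike and so could hardly part the sets. After quantile normalization, which can, they had -0.13, -0.12 and -0.13.

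**Figure D3:**
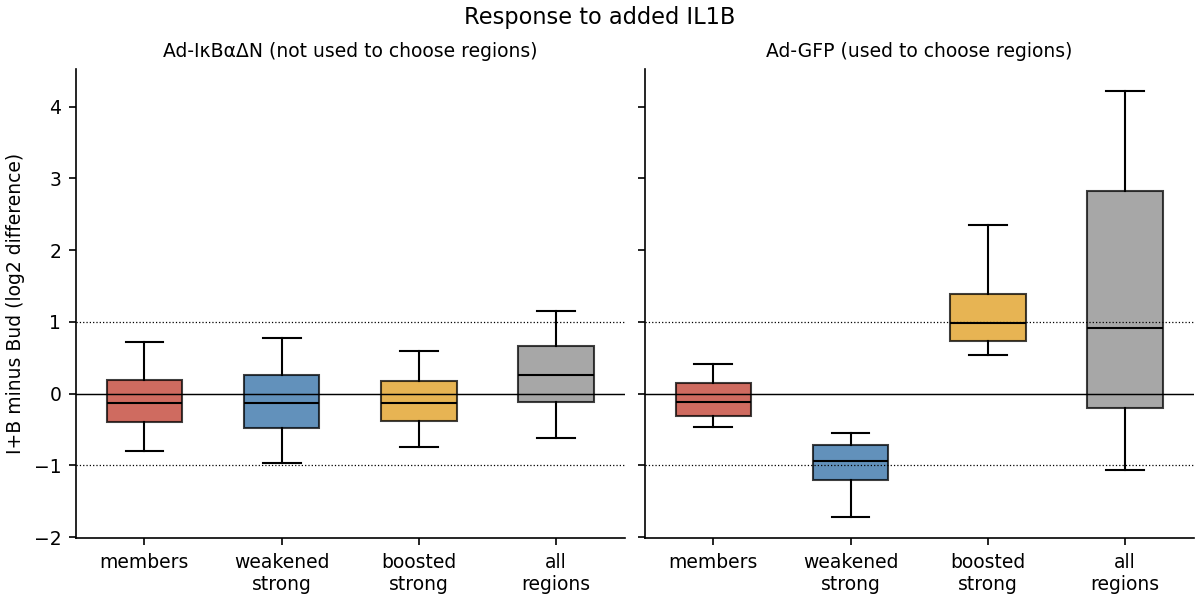
Log2 difference in GR signal between I+B and Bud in Ad-IκBαΔN (left) and Ad-GFP (right) cells, for the members, the weakened and boosted strong regions and all regions. Lines are medians, boxes quartiles and whiskers the 5th and 95th percentiles across regions; the strong sets, apart by definition in Ad-GFP, had medians between -0.13 and -0.12 in Ad-IκBαΔN.

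Single members varied more than this median shows. In Ad-IκBαΔN, 12 members were at least 2-fold higher with I+B than with Bud and 19 at least 2-fold lower, where 9.65% of all regions were higher and 0.94% lower. With steps divided out 0% of members were higher and 22.3% lower, so the counts of 12 and 19 hold for the deposited scale. The shares of all regions were not counted there, and their median was -0.29. The members ranged between -1.83 and 1.38, with quartiles of -0.39 and 0.19, and 734 stayed within 0.5, as did 61.8% of weakened and 76.5% of boosted strong regions and 57.4% of all regions. Both conditions of the rule were met in Ad-IκBαΔN by 393 members (39.3%), against 11.0% of all regions. A member's position within the Ad-GFP band and its Ad-IκBαΔN value had an r of -0.06 over the 1000 members and 0.002 over all 2390 strong regions, against 0.53 over the whole table. The rule narrows the Ad-GFP range of the members, and these coefficients are descriptions.

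Set against Ad-GFP, the members kept their budesonide signal in Ad-IκBαΔN. With Bud, 0 members were at least 2-fold higher or lower in Ad-IκBαΔN, where 4.02% of all regions were higher and 0.0186% lower. The median log2 difference was -0.20, and 896 members lay below 0. The median was -0.22 for weakened and -0.17 for boosted strong regions, against 0.02 over all regions. The small downward shift was thus common to the strong sets, and regions below 0 were not counted outside the members. In NS cells 171 members were at least 2-fold higher and 10 lower, where 7.21% and 2.77% of all regions were, with a median of 0.37. With I+B, 12 were higher and 68 lower, where 5.97% and 46.5% of all regions were, with a median of -0.25 against -0.85 over all regions. The difference between the viruses in the response to added IL1B had a median of -0.05, and 35 members were at least 2-fold higher and 31 lower, where 7.98% and 47.4% of all regions were. These values contain the Ad-GFP signals that chose the members, so they are descriptions. The last pair of medians turned positive under the other scalings, to between 0.59 and 0.72 with I+B and between 0.61 and 0.91 for the response to added IL1B. The counts turned with them. With I+B, 31.4%, 29.1% and 23.2% of members were at least 2-fold higher with steps divided out, re-centred and quantile normalized, and at most 0.1% lower. For the response to added IL1B 43.9%, 41.6% and 23.9% were higher, and at most 0.1% lower. In NS cells quantile normalization gave 33.4% higher and 9.1% lower, but a pseudocount of 5 gave 2.5% and 0.2%. Without the lowest 25% of regions by Ad-GFP NS signal, 541 members remained. Of these, 0.18% were higher and 1.85% lower in NS cells, with a median of 0.02. The NS difference thus rested on members with low Ad-GFP NS signals, which the rule favours. Shares of all regions were not counted under these settings, so these counts have no background beside them. With I+B the medians over all regions were 0.12, 0.08 and 0.08 with steps divided out, re-centred and quantile normalized.

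The 12 strongest members lay between 1.32 kb (DUSP1) and 209 kb (PAPPA) from the nearest gene start. The median distance was 56.8 kb for all members and 49.3 kb for all regions. The highest Ad-IκBαΔN budesonide signal was in an intron of SLC45A4, a transporter gene (chr8:141257616-141258015), with 464, 544 and 12.4 in I+B, Bud and NS cells of Ad-IκBαΔN, against 559.8, 744 and 16.7 in those of Ad-GFP. Next came a region 94.5 kb upstream of PTPN1, a tyrosine phosphatase gene (chr20:50415597-50415996), with 654, 455 and 12.2 in Ad-IκBαΔN and 413, 551 and 7.84 in Ad-GFP. I+B was thus above Bud in Ad-IκBαΔN there (0.52), and below it in Ad-GFP (-0.42), although dividing out the steps took the first value to -0.06. The third lay in an exon of VMP1, an autophagy gene, 55.2 kb from the TUBD1 start site (chr17:59837510-59837909), with 265, 355 and 9.32 in Ad-IκBαΔN and 420.3, 425 and 10.7 in Ad-GFP. A region 8.28 kb upstream of RHOB, which encodes a small GTPase (chr2:20438599-20438998), had 485, 279 and 9.97 in Ad-IκBαΔN, against 284, 366 and 18.1 in Ad-GFP. It is 1 of 26 members that the authors placed in their increasing class, and its Ad-IκBαΔN difference between I+B and Bud was 0.80, or at least 0.21 under the scalings tried. Other members among the 12 strongest were linked to CDKN2AIPNL, RPL31 (in an intron of TBC1D8), GRAPL, DUSP1 and ARRDC2, or lay nearest to PAPPA (209 kb) and CPEB4 (122 kb), too far for a link. Their Ad-IκBαΔN budesonide signals were between 252 and 342. All of those named had Bud at least 4.67 above NS on the log2 scale in Ad-IκBαΔN, and none differed by 1 or more between I+B and Bud there.

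Members lay near many known glucocorticoid target genes. The shares of gene groups that follow stand beside 9.31% members, 9.30% weakened and 3.64% boosted strong regions in the whole table, and they are counts without a test. Among 18 classic targets and feedback genes, 16 had a region within 100 kb, and 8 of their 53 regions (15.1%) were members, while 14 were weakened and 0 boosted strong regions. FKBP5 encodes a co-chaperone that lowers the affinity of GR for its hormone. Its member, 3.45 kb upstream (chr6:35731832-35732231), had 198, 178 and 7.51 in Ad-IκBαΔN I+B, Bud and NS cells, against 146, 199 and 8.62 in Ad-GFP. Near KLF9, a Krüppel-like transcription factor gene, the member 5.50 kb upstream (chr9:70419957-70420356) held both a GRE and an AP-1 motif. It had 252, 193 and 6.77 in Ad-IκBαΔN and 177, 249.9 and 11.7 in Ad-GFP. Both regions thus had I+B above Bud in Ad-IκBαΔN and below it in Ad-GFP, close to the lower limit of the rule, but on the other scalings the Ad-IκBαΔN differences were as low as -0.44 at FKBP5 and -0.20 at KLF9. MAOA, which encodes monoamine oxidase A, had a member 64.9 kb upstream with a GRE at 1 mismatch and 68.8, 51.5 and 3.17 in Ad-IκBαΔN, against 54.8, 56.8 and 6.38 in Ad-GFP. Members of FGD4, GADD45A, GADD45B and RGS2 had budesonide signals between 32.8 and 86.9 in Ad-IκBαΔN.

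Genes that restrain kinase, cytokine and mRNA signalling had 8 members among 86 regions (9.30%), about the table's own share of 9.31%, at DUSP1, DUSP4, ERRFI1, NFKBIA, ZFP36L1 and ZFP36L2, with 5 weakened and 6 boosted strong regions. DUSP1, a phosphatase that switches off MAP kinases, had a member 1.32 kb upstream of its start (chr5:172772312-172772711) with 244, 263 and 7.09 in Ad-IκBαΔN, against 367, 286 and 9.38 in Ad-GFP. A second member 4.58 kb upstream had 196, 131 and 6.41 in Ad-IκBαΔN and 145, 161 and 9.08 in Ad-GFP. These 2 were the highest budesonide regions of the gene. Downstream of the start, at 5.55, 12.9 and 39.2 kb, regions with little budesonide signal (between 8.06 and 11.0 in Ad-IκBαΔN and between 4.73 and 9.41 in Ad-GFP) had 19.2, 11.8 and 14.2 with I+B in Ad-IκBαΔN, against 59.4, 68.4 and 45.8 in Ad-GFP. ERRFI1, an inhibitor of the epidermal growth factor receptor, had a member in its intron (chr1:8004883-8005282) with 115, 83.7 and 8.56 in Ad-IκBαΔN and 107, 107 and 4.16 in Ad-GFP. NFKBIA encodes IκBα itself, and its member, 13.7 kb downstream of the start, was 1 of 29 members with a κB motif. It had 122, 88.0 and 6.29 in Ad-IκBαΔN and 84.3, 98.5 and 8.37 in Ad-GFP.

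Early-response transcription factors held 12 members among 53 regions (22.6%, against 9.31% of the table), with 2 weakened and 6 boosted strong regions. A member in an intron of SPIDR linked to CEBPD, a C/EBP factor gene 78.6 kb away, had 236, 154 and 6.46 in Ad-IκBαΔN, against 133, 186 and 6.11 in Ad-GFP. ID1, an inhibitor of DNA binding, had a member 5.63 kb downstream of its start with 152, 139 and 7.31 in Ad-IκBαΔN and 157, 181 and 12.6 in Ad-GFP. Near MYC, the member had 135, 109.7 and 8.14 in Ad-IκBαΔN and 125, 138 and 18.7 in Ad-GFP. I+B stood above Bud in Ad-IκBαΔN at these 3, by 0.61, 0.13 and 0.30 on the deposited scale, but with steps divided out these were 0.03, -0.45 and -0.28. Near KLF6 the order was the other way (101, 129 and 7.73 in Ad-IκBαΔN, 119, 136 and 8.19 in Ad-GFP), as near BCL6, a transcriptional repressor (78.5, 98.5 and 8.69 in Ad-IκBαΔN, 97.7, 123 and 5.34 in Ad-GFP). FOS, JUNB, KLF4 and KLF5 had members with Ad-IκBαΔN budesonide signals between 31.4 and 54.6.

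NF-κB-dependent inflammatory genes had 2 members among 80 regions (2.5%, against 9.31% of the table). Of the 80, 75 were not strong budesonide regions, and of the 5 strong ones 2 were members, 2 weakened and 1 boosted. CCL20 encodes a chemokine. Its member, 12.7 kb downstream of the start (chr2:227818228-227818627), had 100.3, 136 and 6.80 in Ad-IκBαΔN, against 217, 177 and 4.78 in Ad-GFP. It lay beside an intronic region with a κB motif (8.01 kb) that had 17.5, 7.34 and 6.44 in Ad-IκBαΔN, against 415, 7.94 and 9.72 in Ad-GFP. The Ad-GFP difference between I+B and Bud was thus 0.29 at the member and 5.54 at its neighbour, and under the other scalings it was as low as -1.28 and 3.40. BIRC3, an inhibitor of apoptosis, had a member 11.0 kb upstream (chr11:102306245-102306644) with 89.4, 162 and 7.13 in Ad-IκBαΔN, against 213, 211 and 4.23 in Ad-GFP. Its promoter, with a κB motif, had 32.8, 42.5 and 8.26 in Ad-IκBαΔN and 324, 47.7 and 9.35 in Ad-GFP. At each of these members I+B lay below Bud in Ad-IκBαΔN, by -0.44 at CCL20 and -0.85 at BIRC3, and stayed below under the scalings tried.

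**Figure D4:**
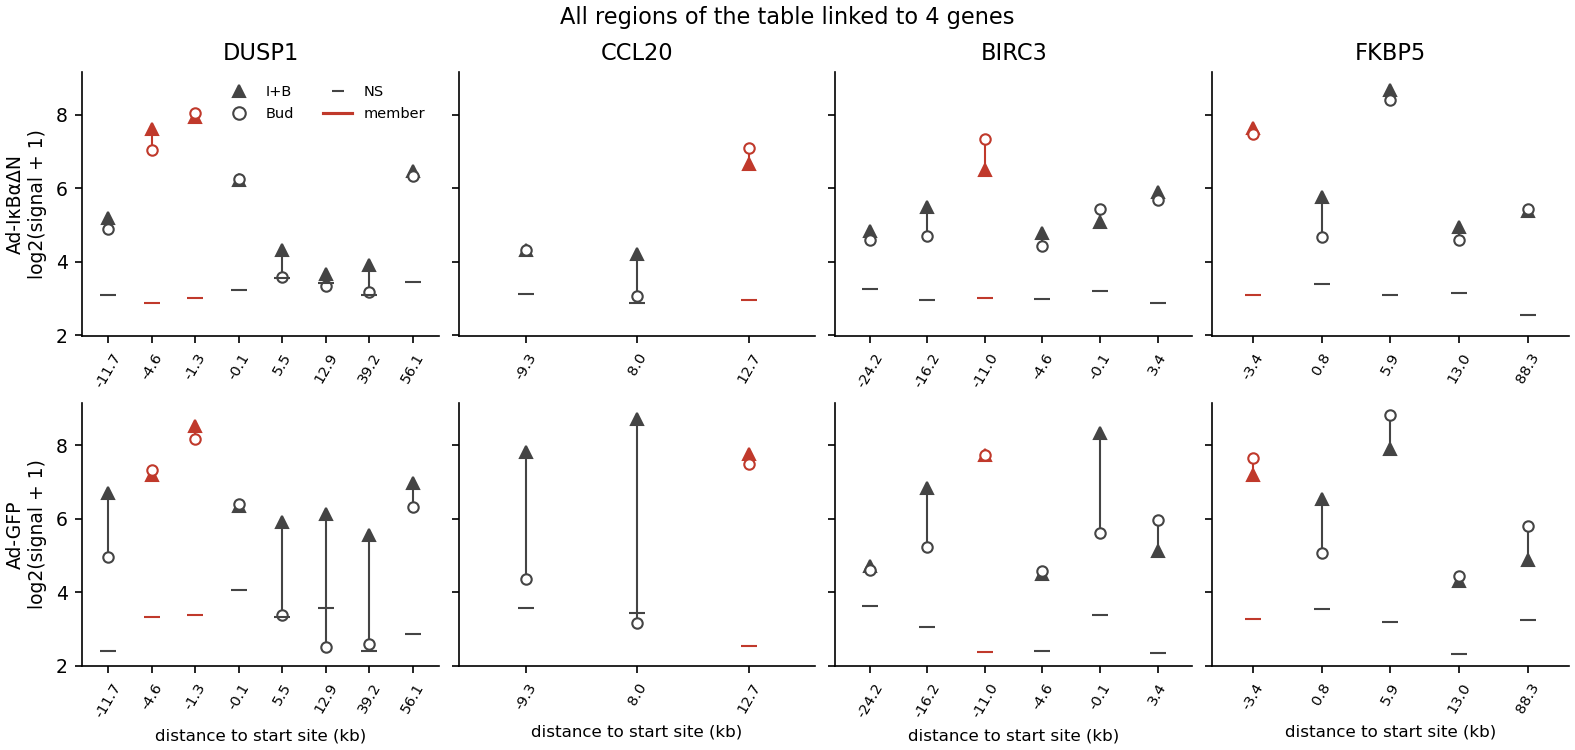
GR signal, log2(signal + 1), at all regions linked to DUSP1, CCL20, BIRC3 and FKBP5, ordered by distance to the gene's start site in kb, in Ad-IκBαΔN (top) and Ad-GFP (bottom) cells. Triangles are I+B, circles Bud and bars NS, and members are red; the members were the highest with Bud at DUSP1, CCL20 and BIRC3, whereas at FKBP5 an intronic weakened strong region was higher.

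At FKBP5 the member was not the main budesonide region. The intronic region 5.90 kb downstream of the start had 404, 340.1 and 7.56 in Ad-IκBαΔN, against 239.5, 455 and 8.10 in Ad-GFP, and was a weakened strong region. A region 0.803 kb downstream had 53.3, 24.4 and 9.65 in Ad-IκBαΔN and 91.9, 32.4 and 10.7 in Ad-GFP. On the deposited scale, a single gene thus had regions whose budesonide signal in Ad-GFP was lower, little changed and higher with added IL1B. These differences, -0.92, -0.44 and 1.48 as deposited, were as low as -2.50, -2.01 and -0.08 under the other scalings. DUSP1 had 2 members, 2 boosted and 0 weakened strong regions among 8, and ERRFI1 had 1 member and 1 weakened one among 6.

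Genes of metabolism, stress and metal handling had 5 members among 44 regions (11.4%, against 9.31% of the table), with 19 weakened and 3 boosted strong regions. They lay near PDK4, which encodes a kinase that inhibits pyruvate dehydrogenase, ANGPTL4, an inhibitor of lipoprotein lipase, the fatty acid ligase gene ACSL1, the insulin signalling adaptor gene IRS2 and the metallothionein gene MT1X. Their Ad-IκBαΔN budesonide signals were between 26.9 and 58.5. Lung epithelial genes had 6 members among 26 regions (23.1%, against 9.31%), with 6 weakened and 1 boosted. The highest lay in an intron of KRT8 and was linked to KRT18, the partner keratin gene (chr12:52925901-52926300), with 171, 230.2 and 5.75 in Ad-IκBαΔN and 227, 294 and 9.18 in Ad-GFP. Because KRT8 and KRT18 are neighbours, the gene it belongs to is uncertain. SCNN1B, a subunit of the epithelial sodium channel, had an intronic member with 162, 77.5 and 8.01 in Ad-IκBαΔN and 81.4, 94.0 and 10.46 in Ad-GFP. GRHL2, an epithelial transcription factor gene, and HOPX, an alveolar type I marker, had weaker ones (38.1 and 16.2 with Bud in Ad-IκBαΔN). The HOPX member had a low signal, with 20.1 in Ad-GFP Bud, and its Bud value was only 1.01 above NS in Ad-IκBαΔN. In Ad-GFP, where its NS signal was 1.35, that difference was 3.17, near the members' median of 3.10.

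The members lay between the weakened and the boosted strong regions in their shares of GRE, AP-1 and κB motifs. A GRE with at most 2 mismatches was found in 194 members (19.4%, Wilson 95% interval 17.1 to 22.0), in 29.5% of weakened and 11.3% of boosted strong regions, and in 14.7% of all regions. The AP-1 motif TGACTCA went the opposite way, with 23.0% of members, 17.0% of weakened and 33.2% of boosted strong regions, and 22.8% of all regions. The κB motif was in 29 members (2.9%, interval 2.03 to 4.13), against 1.30% of weakened strong, 13.6% of boosted strong and 21.3% of all regions. The C/EBP motif TTGCNNAA was in 31.6% of members and 29.3% of all regions, the forkhead motif TGTTTAC in 18.5% and 13.1% (14.4% of weakened and 17.1% of boosted strong regions, both under the members), and the TEAD motif GGAATG in 29.1% and 28.1%. A single arm of the element, AGAACA, was in 51.4% of members and 41.8% of all regions, and it overlaps a GRE wherever that element has an intact arm. All motifs were searched on both strands. None of GRE, AP-1 and κB was found in 609 members (60.9%), against 56.6% of weakened strong, 51.4% of boosted strong and 49.2% of all regions. A GRE as well as AP-1 was in 45 members (4.5%), against 3.90%, 3.07% and 2.56% of these. In the 194 members with a GRE, its centre lay at a median of 17.5 bp from the region's centre. The intervals cover counting only, and neighbouring regions are not independent.

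**Figure D5:**
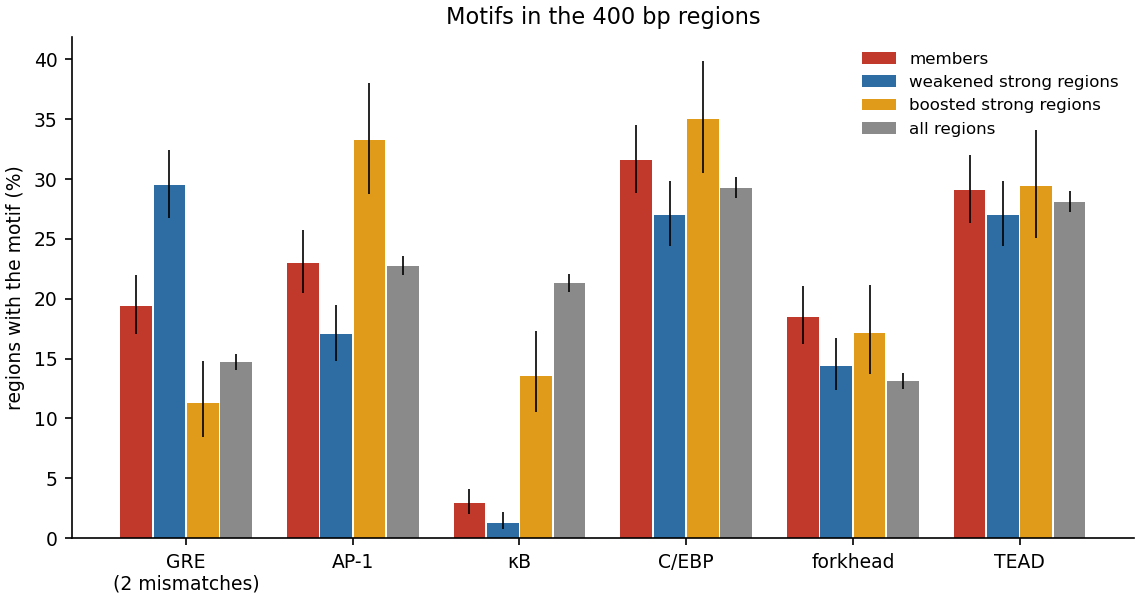
Share of regions with each motif in the 400 bp region, in percent, for the members, the weakened and boosted strong regions and all regions; bars start at 0 and lines are Wilson 95% intervals. The members stand between the weakened and the boosted strong regions for GRE (19.4%), AP-1 (23.0%) and κB (2.9%).

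Members with a closer GRE match had a higher median response to added IL1B in Ad-IκBαΔN cells. The Ad-IκBαΔN median difference between I+B and Bud was 0.07 in the 194 members with a GRE and -0.17 in the 806 without. By the best match it was 0.23 with 0 or 1 mismatches (47 members), 0.04 with 2 (147), -0.15 with 3 (360), -0.20 with 4 (382) and -0.16 with 5 or more (64). The quartiles of the first and the fourth of these, -0.12 and 0.52 against -0.42 and 0.10, overlapped. The same order was seen outside the members, with 0.08 and -0.20 for weakened strong regions with and without a GRE, and 0.15 and -0.14 for boosted ones. The gain with budesonide alone did not follow the element, at 2.58 in members with a GRE and 2.57 in those without. Of the members with 0 mismatches, the SRD5A3 intron had 54.8, 26.8 and 7.76 in Ad-IκBαΔN, against 23.1, 32.4 and 2.43 in Ad-GFP, and the PDSS2 intron had 35.5, 16.8 and 6.33, against 15.9, 20.3 and 2.12 in Ad-GFP. A region 2.63 kb upstream of PUF60 had 84.7, 32.0 and 6.23, against 30.8, 42.2 and 6.01 in Ad-GFP. In these 3, I+B was at least 2-fold above Bud in Ad-IκBαΔN on the deposited scale, but their log2 differences came down to 0.43, 0.47 and 0.80 under other scalings. The complete element near BCOR was the exception, with 55.8, 50.8 and 3.38 in Ad-IκBαΔN and 40.4, 54.7 and 3.94 in Ad-GFP.

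The members at the ends of the Ad-IκBαΔN response were few. The highest differences between I+B and Bud were at the regions linked to PUF60 (1.38), ZBTB38 (1.37), NEURL1 (1.17), CD7 (1.13) and CST3 (1.13), and they were at least 0.55 under each scaling. The CD7 region, with GRE and AP-1, had 390.4, 177 and 10.1 in Ad-IκBαΔN, against 226, 201 and 11.0 in Ad-GFP. The lowest were in an intron of FBRSL1 (-1.83), in an intron of VWA8 (-1.76), at 2 regions 229.7 and 181 kb upstream of PAPPA (-1.58 each) and in an intron of TMEM164 (-1.51), all at or below -1.22 under each scaling. The FBRSL1 region had 52.2, 188 and 10.1 in Ad-IκBαΔN, against 169, 222 and 7.75 in Ad-GFP. The best GRE matches had 3 to 5 mismatches in these lowest 5 and 0 to 3 in the highest 5, so they overlapped. PAPPA encodes a protease of insulin-like growth factor binding proteins, and its strongest member, 209 kb upstream, had 257, 339.8 and 8.31 in Ad-IκBαΔN and 346, 409.8 and 10.8 in Ad-GFP, a smaller difference of -0.40 in Ad-IκBαΔN.

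Between the viruses, the budesonide signal of single members differed little. The lowest log2 differences between Ad-IκBαΔN and Ad-GFP with Bud were in introns of WWC3 (-0.65), PTP4A1 (-0.64), TNS1 (-0.57), MTPN (-0.57) and ARID1B (-0.55). The WWC3 region had 42.0 in Ad-IκBαΔN and 66.3 in Ad-GFP. The highest were in an exon of RBMS3 (0.32) and at regions nearest to COPZ2 (0.24), KLF5 (0.24, at 411 kb, too far for a link), COL6A2 (0.20) and EFR3A (0.20). The RBMS3 region had 28.5 in Ad-IκBαΔN and 22.7 in Ad-GFP.

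Most members lay in introns or between genes. Introns held 49.6% of them, intergenic sequence 46.2% and exons 4.2%, against 47.8%, 48.0% and 4.26% of all regions, and 687 (68.7%) lay within 100 kb of the start of a protein-coding gene, against 70.5%. Within 1 kb of a start there were 18 members (1.8%), against 2.60% of weakened strong, 4.86% of boosted strong and 3.76% of all regions. Those 18 included the starts of MT1X, of FGA, a fibrinogen chain gene, of ATF6, a factor of the unfolded protein response, and of SMAD2, a mediator of TGF-β signals. At ATF6 the signals were 91.4, 49.0 and 5.79 in Ad-IκBαΔN, against 76.6, 60.4 and 3.87 in Ad-GFP. At SMAD2 they were 52.3, 37.9 and 8.14 in Ad-IκBαΔN, against 50.3, 42.5 and 4.92 in Ad-GFP. The linked members belonged to 595 genes, of which 523 had 1 and 13 had 3 or more. FILIP1 had 5, and CPLX2, CRIM1, EHF, RPL26L1 and ZMYND8 had 4 each. EHF encodes an epithelial ETS factor.

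Members lay in more crowded surroundings than weakened strong regions and less crowded ones than boosted strong regions. The median distance to the nearest other region of the table was 13.4 kb for members, 21.9 kb for weakened and 8.34 kb for boosted strong regions, and 22.7 kb for all. Within 10 kb, 42.5% of members had another region, 11.9% another member, 6.8% a weakened and 3.8% a boosted strong region, against 34.7%, 5.51%, 4.16% and 2.90% of all regions. A region of the authors' increasing class lay within 10 kb of 15.4% of members, 6.31% of weakened strong, 33.2% of boosted strong and 16.8% of all regions. By the authors' classes, 626 members (62.6%) were unchanged, 348 (34.8%) decreasing and 26 (2.6%) increasing, against 31.8%, 27.8% and 40.5% of all regions. Their definition was not stated in the labels, and they may rest on the same signals. The Ad-IκBαΔN difference between I+B and Bud had a median of 0.47 in the 26 increasing members, -0.11 in the unchanged and -0.17 in the decreasing ones, and that between Bud and NS had 2.86, 2.79 and 2.27. Members of the decreasing class thus had the smallest gain with budesonide of the 3 classes.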

How the data were processed

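GR ChIP-seq values of 6 groups were analysed, with 2 of the 26 libraries in each; the RELA and input libraries were not used. The authors deposited log2 binding intensities, 1 per region and group, on hg38; the depth behind them is unknown. The submitters' processing notes name DiffBind 3.2, MACS2 2.2.7.1, SAMtools, Bowtie2 2.4.4, FastQC 0.10.1 and bcl2fastq. Which tool made the intensities, how libraries were combined and how groups were scaled was not given in the sources used. The members, gene lists and motifs were chosen with earlier results of these data known. With 1 value per group no test was run, and differences of at least 1 in log2(signal + 1), which understates differences at low signal, were counted as 2-fold; the counting was tested on simulated data. Starts were read as counted from 0 and are printed counted from 1. Regions were linked to the nearest protein-coding start site of GENCODE 44 within 100 kb. Named were the 12 members with the highest Ad-IκBαΔN budesonide signal (1 is not reported here), the top member of each listed gene, the 5 highest and 5 lowest for Ad-IκBαΔN I+B minus Bud and for Ad-IκBαΔN minus Ad-GFP with Bud, the 5 best response elements and the 3 regions nearest each side of a threshold. Neighbours of members and members at start sites were named after their values were seen. Alternatives covered group scaling, pseudocount, low signals, rule thresholds, fold, motif window and mismatches. Computation used matplotlib 3.10.9, scipy 1.17.1, pandas 2.3.3 and numpy 2.4.6 under Python 3.11.15.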

Additional observations from a re-analysis of the deposited data

How the results depend on the processing

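Limits are set by 1 value per group, an unknown depth and a scale that differed between groups. No paired analysis was possible because the table holds 1 value per region and group, and for the same reason no library could be left out. The rule found 147 regions with steps divided out, 29 after re-centring and 39 after quantile normalization, of which 0, 0 and 27 were among the 1000. It found 1608 with a budesonide threshold of 2.0, 554 with 3.0 and 488 with an IL1B limit of 0.25. For Ad-IκBαΔN I+B against Bud, members at least 2-fold higher were 1.2% as deposited, and 0%, 0.5% and 0.2% under the 3 scalings; those lower were 1.9% as deposited, 22.3% with steps divided out and 3.4% after re-centring. With a pseudocount of 5 they were 0.6% higher and 1.1% lower, and at 1.5-fold 6.7% and 12.7%. Members at least 2-fold higher with Bud than NS in Ad-IκBαΔN fell to 61.6% after re-centring and 51.7% after quantile normalization, which remove a general gain. For these counts, shares of all regions were taken at the main settings only. The median of Ad-IκBαΔN against Ad-GFP with I+B turned to 0.72, 0.68 and 0.59, and that of the response to added IL1B to 0.91, 0.86 and 0.61. In the central 200 bp, motif shares of members were 17% for GRE, 15.6% for AP-1, 1.4% for κB, 22.4% for C/EBP, 11.9% for forkhead and 18.4% for TEAD, a shorter window by construction. Over all regions the shares in that window were 13.2%, 15.7%, 18.9%, 20.4%, 8.98% and 17.1%, in the same order. GRE shares of members were 4.7% with at most 1 mismatch and 55.4% with at most 3, against 3.43% and 45.1% of all regions. The median of Bud against NS in Ad-IκBαΔN was 1.21 and 1.05 after re-centring and quantile normalization, against 2.57, that of I+B against Bud -0.69 with steps divided out, and that of Ad-IκBαΔN against Ad-GFP with Bud -0.02 after quantile normalization, against -0.20.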
